A study of Mus musculus with 30 samples.

Results

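The comparison described here is the difference between 2 knockout effects in quadriceps muscle: the change from wild type (WT) to Gaa knockout (KO) on a mixed B6;129;DBA2/J background, minus the same change on B6;129. It used 12 of the 30 samples of the series, 3 in each of 4 groups, and was tested in 14113 of the 17420 listed genes, those whose signal reached 1 in 3 or more of the 15 quadriceps libraries. The study profiled quadriceps and spinal cord, taken from the same animals, by single-end sequencing of polyadenylated RNA. Signal is the authors' deposited value. The values show it to be reads plus 0.5, scaled to a common library size, so that a gene with no read has a small value above 0.

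All mice were males aged 4 months. The 4 groups were untreated Gaa WT and untreated Gaa KO on B6;129, and untreated Gaa WT and untreated Gaa KO on B6;129;DBA2/J. The labels give Ltbp4D36/D36 for every animal of the mixed background, WT and KO alike, and for none of B6;129. A 5th group, Gaa KO mice of the mixed background injected as neonates with AAV9 that encodes human GAA from the liver-muscle promoter LiMP, was in the fit for its estimate of the spread and enters no contrast. The labels do not say which strain's alleles an animal carried at any locus, whether WT and KO mice were littermates, or how the KO allele was made. The libraries of each background also form a series of their own in the deposited column names, so background, Ltbp4 genotype and library series cannot be told apart. Replicates are separate animals.

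GAA is the lysosomal acid alpha-glucosidase that breaks down glycogen delivered to the lysosome, and its loss causes Pompe disease, in which glycogen-filled lysosomes and stalled autophagy damage muscle fibres. DBA/2J alleles are known to worsen several mouse muscular dystrophies, and a shortened form of LTBP4, a latent TGF-beta binding protein of the matrix, is 1 of the modifiers held responsible. A difference of knockout effects asks, gene by gene, whether the response to the lost enzyme depends on such a background.

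The targeted gene followed the labels in every library. Gaa (chromosome 11, 119267887-119285454 in GRCm38) had signals of 308, 258 and 259 in WT B6;129, 214, 169 and 254 in WT mixed, 15.4 to 16.2 in KO B6;129 and 11.6 to 16.7 in KO mixed. Its knockout effect was -4.07 on B6;129 and -3.79 on the mixed background on the log2 scale, and the difference of 0.29 ± 0.21 (SE) did not pass the test (limma, Benjamini-Hochberg adjusted p = 0.667). Ltbp4 overlapped between the WT groups (58.1 to 87.2 mixed, 63.7 to 76.5 B6;129) and was lower in KO on both, with effects of -0.74 on B6;129 and -1.05 mixed. The series-wide facts that bear on the values are few. The 12 libraries held 16854081 to 37136087 reads. The 8 markers of quadriceps fibres (Acta1, Ckm, Myh4 and others) summed to a signal of 177817 to 194844 in WT B6;129 and 182971 to 220386 in WT mixed. In KO they summed to 136384 to 148511 on B6;129 and 125868 to 149082 on the mixed background, below every WT library. The replicate 4 animal of WT mixed stood apart in stress-response genes, as given beside those genes.

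Few genes were called for a difference of the knockout effect between backgrounds. At an adjusted p under 0.05, 40 of 14113 genes were called (0.283%), 14 with a higher effect on the mixed background (0.0992%) and 26 with a lower one (0.184%), and 29 of the 40 differed by over 2-fold. At an unadjusted p under 0.05 there were 1537 genes (10.9%). The knockout effects themselves were called in 5046 genes on B6;129 (35.8%, 16.7% higher and 19% lower in KO) and in 5562 on the mixed background (39.4%, 17.1% higher and 22.3% lower). The 801 genes whose effect on B6;129 was called and over 2-fold upward had a median of 1.46 there and of 1.18 on the mixed background, and the 719 chosen in the same way on the mixed background had 1.39 there and 1.36 on B6;129. The 381 genes so chosen downward on B6;129 had medians of -1.32 there and -1.10 on the mixed background, and the 446 on the mixed background -1.34 there and -0.97 on B6;129. Genes chosen by 1 of the 2 values are bound to lie somewhat nearer 0 in the other, so these medians do not show a weaker response on either background. Of the 801 and 719 upward genes, 8 and 12 were called for the difference. Between the WT groups 363 genes were called (2.57%), and between the KO groups 668 (4.73%). Of the 40, 33 also differed between the KO groups and 11 between the WT groups. The median standard error of the difference was 0.22, and for 73.0% of genes the 95% interval lay within 2-fold in either direction. The p-values measure the spread between 3 animals a group.

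The count of 40 moved with single animals. Leaving out 1 library gave 11 calls without WT B6;129 replicate 4, 12 without KO mixed replicate 6, 15 without KO B6;129 replicate 2, 16 without WT B6;129 replicate 5, 21 without KO B6;129 replicate 3, 22 without KO mixed replicate 7, 26 without WT mixed replicate 1, 70 without WT mixed replicate 3 and 116 without KO mixed replicate 8. On whole reads recovered from the signal, edgeR called 10, all among the 40 (Atn1, Fosb, Hmga1b, Kif24, Mta1, Nbl1, Rab11b-ps2, Rnpep, Sfi1 and Slc26a11), limma voom called 6 and DESeq2 203. Of the 40, 4 were tested and not called by DESeq2 (Tpm3-rs7, Gm11942, Cdkn2a and Gm27168). The direction of each of the 40 was the same under every alternative in which the gene was tested.

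**Figure D1:**
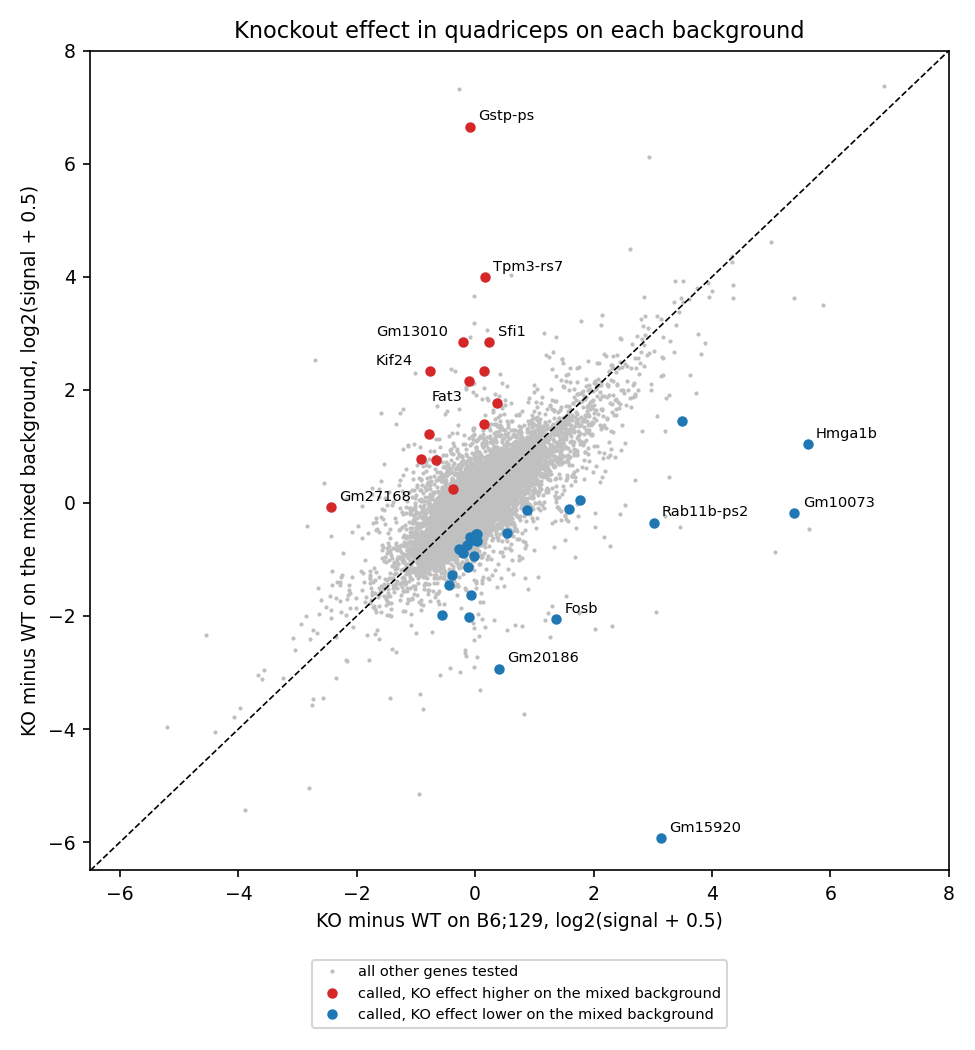
Knockout effect of each tested gene on B6;129 (horizontal axis) and on the mixed background (vertical axis), both as KO minus WT on log2(signal + 0.5); the dashed line marks equal effects, grey points are the genes not called, red points the 14 called genes with a higher effect on the mixed background and blue points the 26 with a lower one. Most grey points follow the dashed line, and the named genes, those called with a difference over 2.2 on the log2 scale, lie far from it.

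The largest differences were in near-identical copies of other genes, which were read in some groups and had almost no read in others. Of the 40 called genes, 9 (22.5%) shared over 50% of their 61-base windows, the read length, with another gene's transcripts, against 5.82% of all tested genes (in Atn1 that gene is an overlapping model at the same locus), and 4 (10.0%) were annotated pseudogenes, against 2.60% of those tested. For such genes the authors' counting could have split reads between copy and parent, so their levels are uncertain. The 4 pairs below are shown because their coding stretches, in transcripts of GENCODE vM21 on GRCm38, differ at only the bases in capitals, by which a short read can tell copy from parent; each stretch is 90 bases of the parent's coding sequence or the aligned copy, and Hmga1b and Hmga1 have the same letters over all 354 coding bases.
Gstp-ps, aligned to bases 3 to 92 of Gstp2: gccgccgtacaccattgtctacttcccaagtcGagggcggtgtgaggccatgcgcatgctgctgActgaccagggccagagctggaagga
Gstp2, bases 3 to 92: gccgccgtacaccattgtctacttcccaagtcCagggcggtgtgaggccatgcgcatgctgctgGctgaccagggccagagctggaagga
Gm10073, aligned to bases 169 to 258 of Rplp1: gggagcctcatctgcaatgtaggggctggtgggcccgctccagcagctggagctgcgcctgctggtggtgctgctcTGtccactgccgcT
Rplp1, bases 169 to 258: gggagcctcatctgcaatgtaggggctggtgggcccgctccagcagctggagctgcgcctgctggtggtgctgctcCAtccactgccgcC
Tpm3-rs7, aligned to bases 38 to 127 of Tpm3: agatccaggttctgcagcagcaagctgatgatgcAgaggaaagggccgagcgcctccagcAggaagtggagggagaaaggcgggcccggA
Tpm3, bases 38 to 127: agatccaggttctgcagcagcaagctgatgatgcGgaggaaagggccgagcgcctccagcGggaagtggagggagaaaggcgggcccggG
Hmga1b and Hmga1, bases 1 to 90: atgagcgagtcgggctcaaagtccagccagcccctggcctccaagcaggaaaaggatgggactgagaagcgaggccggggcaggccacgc

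Gstp-ps (chromosome 1, 192073820-192074450), a processed pseudogene of the Gstp glutathione transferases, was high only in KO animals of the mixed background, treated or not. Its signals were 56.2, 46.4 and 56.8 in KO mixed and 32.4, 15.0 and 31.4 in treated KO mixed, while the other 9 untreated libraries held 1 read in all. KO mixed was at least 314-fold higher than WT mixed when each library without a read was set to 3 reads. The difference of effects was 6.75 ± 0.33 (SE) on the log2(signal + 0.5) scale, with a limma adjusted p of 1.98e-07, and its call was lost with edgeR and voom. Gstp2, the parent sequence, was higher in KO on both backgrounds (227 to 241 in KO B6;129 against 84.2 to 94.7 in WT B6;129, and 136 to 195 in KO mixed against 94.8 to 114 in WT mixed), and in KO mixed the pseudogene made up 22.5% to 25.4% of the summed signal of the pair.

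Gm10073 (chromosome 8, 106572966-106573461), annotated as protein coding and a near copy of the ribosomal protein gene Rplp1, showed the reverse. Its signals were 24.4, 25.8 and 29.4 in KO B6;129 and at most 0.292 in the other 12 quadriceps libraries, treated ones included. The difference was -5.58 ± 0.31 (limma adjusted p = 5.26e-07), and its call was lost with edgeR and voom. Gm11942, a processed pseudogene that shares 23.9% of its windows with Gm10073, followed it at a lower level (1.33, 1.02 and 1.83 in KO B6;129, at most 0.0899 elsewhere), and lost its call with edgeR, DESeq2, voom and 6 of the 12 single libraries left out. Rplp1 itself did not pass the test of the difference (-0.21 ± 0.12, adjusted p = 0.591).

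Hmga1b (chromosome 11, 120762794-120764419), a copy of the gene for the architectural chromatin protein HMGA1, lacked reads in WT B6;129 alone. None fell on it in those 3 libraries, whereas the signals were 25.4, 23.9 and 27.2 in KO B6;129, 30.8, 26.0 and 18.2 in WT mixed, and 53.3, 40.3 and 61.9 in KO mixed. The difference of -4.57 ± 0.26 (limma adjusted p = 5.26e-07) therefore comes from the B6;129 side, where KO was at least 145-fold above WT. Hmga1 was split otherwise: 42.9 to 58.9 in all 6 B6;129 libraries, 9.72, 9.25 and 42.2 in WT mixed, and 9.06 to 13.0 in KO mixed. The 1 high value in WT mixed was that of replicate 4, which was also the animal with the lowest Hmga1b of its group.

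Tpm3-rs7 (chromosome 14, 113314608-113316754), a copy of the slow-muscle tropomyosin gene Tpm3, had signals of 9.70, 11.4 and 8.78 in KO mixed, 18.9, 9.12 and 8.72 in treated KO mixed, and at most 0.231 in the other 9 libraries (difference 3.83 ± 0.37, limma adjusted p = 0.000316). Its call was lost with edgeR, DESeq2 and voom, where the adjusted p reached 0.663. Gm15920, a pseudogene of the complex I gene Ndufa12, was read in KO B6;129 (20.7, 20.1 and 17.9) and WT mixed (26.7, 53.7 and 31.1) but in neither KO mixed nor treated animals beyond 0.543. Its WT B6;129 values were 0.0360, 24.3 and 0.395, so that 1 of the 3 WT animals had it and 2 did not, which is a spread that the fitted difference of -9.06 ± 1.39 (limma adjusted p = 0.0185) carries. The call was lost with edgeR and voom, without KO B6;129 replicate 2 and without KO mixed replicate 6. Rab11b-ps2, a pseudogene of the endosomal GTPase gene Rab11b, was at 0.0232 to 0.180 in WT B6;129 and at 1.29 to 7.04 in the other 3 groups (difference -3.36 ± 0.54, limma adjusted p = 0.0246), and was called under 16 of 24 alternatives.

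The spinal cord of the same animals gave a readout that the quadriceps test did not use. There the same contrast called 83 of 15838 genes (0.524%). Of the 40 quadriceps calls, 34 were tested in cord, and 7 were called there too, each in the same direction (20.6% of the 34, and 8.43% of the 83 cord calls): Gm10073, Hmga1b, Tpm3-rs7, Gm15920, Kif24, Sfi1 and Slc26a11. The cord differences were -3.96 for Gm10073, -4.81 for Hmga1b, 5.05 for Tpm3-rs7 and -7.12 for Gm15920, against quadriceps values of -5.58, -4.57, 3.83 and -9.06. In Gm15920 and Hmga1 single animals matched too. Gm15920 in the cord of WT B6;129 was 0.102, 5.11 and 0.00894, high again in replicate 5 alone, and Hmga1 in the cord of WT mixed was 17.7, 19.4 and 67.4, high again in replicate 4. Rab11b-ps2 did not match. In cord WT B6;129, its lowest group in quadriceps, was at 5.7, 3.5 and 4.2, and the mixed groups at 2.66 or less. Its cord difference of -1.36 did not pass the test. For the other 27 tested in cord the difference did not pass the test there, and 23 of the 34 had the same sign in both tissues.

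**Figure D2:**
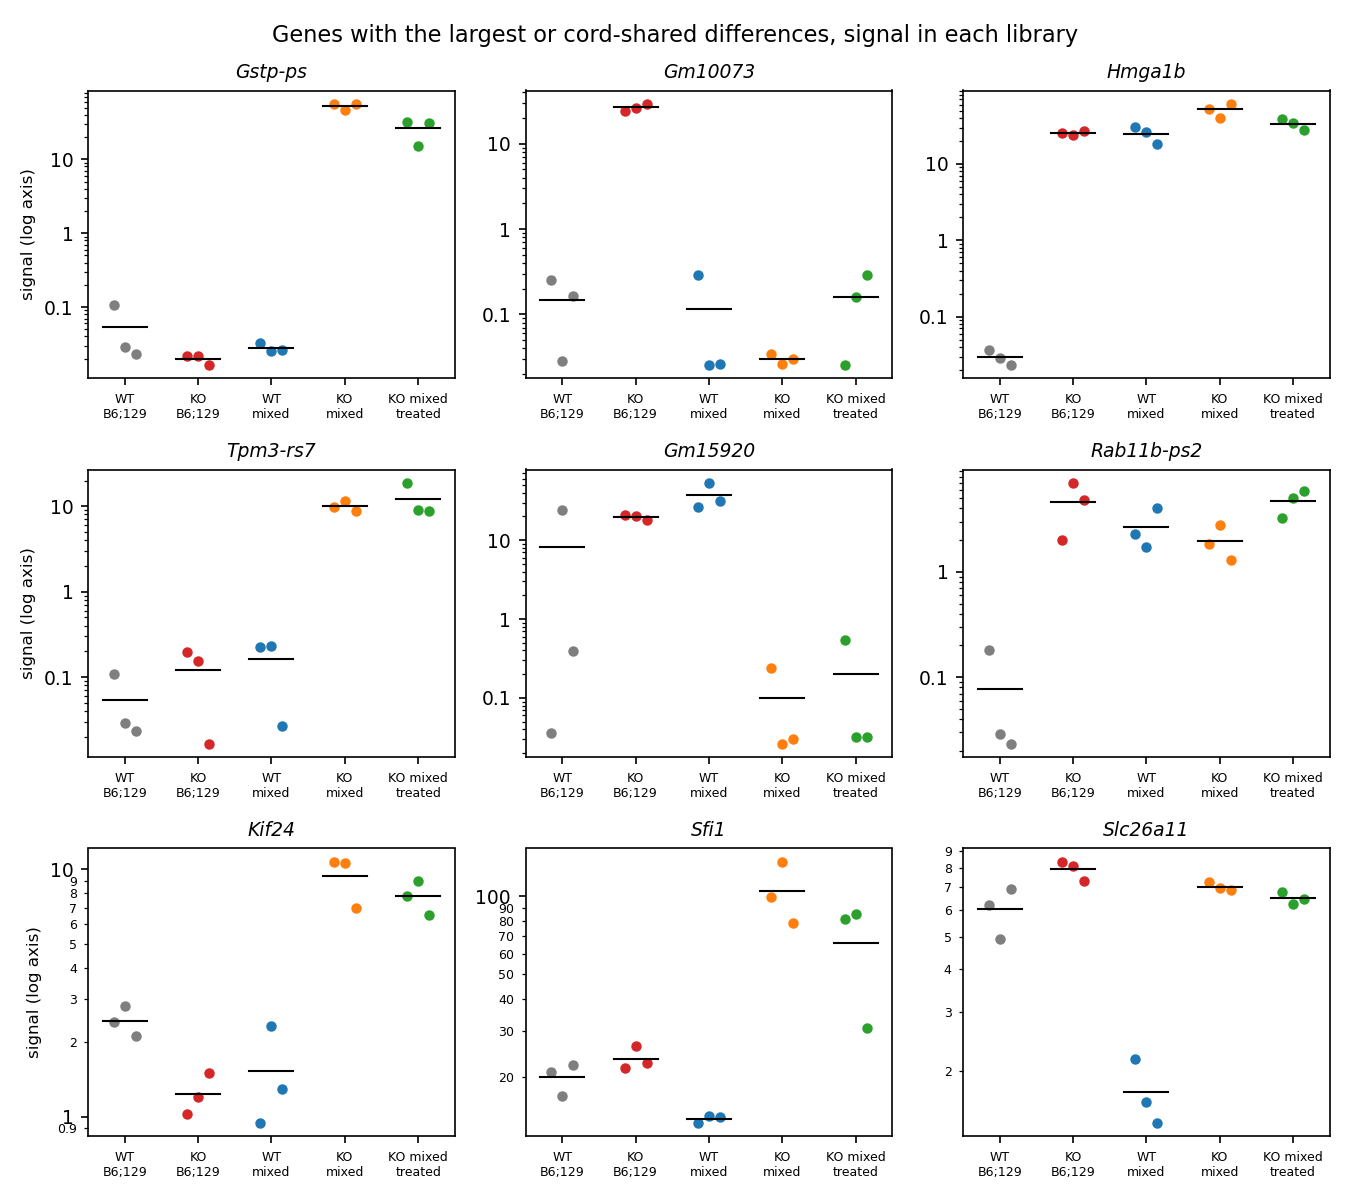
Signal (log axes) of 9 called genes in each quadriceps library, with points for the 3 libraries of each of 5 groups and a bar at each group's mean; points at about 0.02 to 0.04 are libraries without a read. Gstp-ps, Tpm3-rs7 and Kif24 are high in both KO mixed groups, Gm10073 in KO B6;129 alone, Hmga1b and Rab11b-ps2 are low in WT B6;129 alone, and Slc26a11 is low in WT mixed alone.

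The other 3 genes called in both tissues shared few windows with other genes (4.84% in Kif24, 2.35% in Sfi1, none in Slc26a11). Kif24, a kinesin that acts at the centriole, was at 10.7, 10.6 and 6.98 in KO mixed and at 0.942 to 2.79 in the other 9 untreated libraries, while treated animals stayed at 6.52 to 8.99 (difference 3.09 ± 0.34, limma adjusted p = 0.00110, and 2.99 in cord). It was among the 4 genes, with Atn1, Mta1 and Hmga1b, that were called under all 24 alternatives. Sfi1, a centrin-binding protein gene, was at 99.8, 136 and 78.8 in KO mixed, 13.2 to 14.1 in WT mixed and 16.8 to 26.3 on B6;129, with no overlap (difference 2.61 ± 0.43, adjusted p = 0.0246, and 2.70 in cord). Treated animals were at 81.7, 85.1 and 30.96. The Sfi1 call held with 5 of the 12 single libraries left out.

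Slc26a11, an anion transporter gene, lies at 119355557-119381079 on chromosome 11, downstream of Gaa on the same strand, so that the targeted locus and this gene are neighbours. Its signals were 2.18, 1.61 and 1.40 in WT mixed and 4.93 to 8.35 in every other untreated library, and treated KO mixed animals, which carry the KO locus, were at 6.26 to 6.81. The difference of 1.40 ± 0.21 (limma adjusted p = 0.0160) thus lies in WT mixed, and in cord WT mixed was again the lowest group (4.10 to 4.28 against 5.29 to 8.25 in the other 4 groups, difference 0.87, adjusted p = 0.0359). It was the 1 called gene of the 13 tested in the list of genes around Gaa. Sgsh, the neighbouring heparan sulfamidase gene of the lysosome, had a difference of 0.19 (adjusted p = 0.768), and Card14 had KO effects of 3.48 and 3.63 with a difference of 0.15 (adjusted p = 0.922).

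A further group of called genes was lower in untreated KO mixed animals than in all other untreated ones. In 15 of the 26 genes called lower, all 3 KO mixed libraries lay below all 9 other untreated libraries, and in 14 of those 15 the 3 treated KO mixed libraries lay above all KO mixed ones. The share of all tested genes with such a separation was not counted, so these counts only describe the called genes. Over all calls, the treated mean lay nearer WT mixed than KO mixed in 20 of the 26 lower genes and nearer KO mixed in 11 of the 14 higher ones, given as a description since the calls rest on the KO mixed values. Atn1, the transcriptional corepressor atrophin 1, was at 66.7, 57.0 and 55.7 in WT B6;129, 42.1, 44.6 and 44.9 in KO B6;129, 63.3, 62.1 and 57.0 in WT mixed, 20.5, 19.7 and 25.7 in KO mixed, and 85.9, 73.1 and 77.8 after treatment. Its knockout effects were -0.44 and -1.46 (difference -1.02 ± 0.15, limma adjusted p = 0.0149). Of the Atn1 windows, 83.3% also occur in Gm45234, an overlapping gene model on the same strand. Mta1, a subunit of the NuRD chromatin remodeller, went the same way, with 29.1 to 30.4 in KO B6;129, 15.8 to 19.9 in KO mixed and 38.0 to 45.5 in the 2 WT groups (difference -0.88 ± 0.13, adjusted p = 0.0149).

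In most of the others the B6;129 knockout effect did not pass the test. Eif4g3, a scaffold of translation initiation, had signals of 235, 203 and 213 in WT B6;129, 228, 224 and 210 in KO B6;129, 247, 215 and 218 in WT mixed and 138, 136 and 149 in KO mixed, and 207 to 234 after treatment (difference -0.70 ± 0.11, limma adjusted p = 0.0185). Cic, the transcriptional repressor capicua, was at 33.7 to 37.3 in the 9 other untreated libraries and at 23.1, 24.7 and 24.8 in KO mixed (difference -0.57). Ap2a1, a subunit of the clathrin adaptor AP-2, was at 87.3 to 99.8 against 61.5, 52.1 and 68.7 (difference -0.64). The same shape held for Mark4, a microtubule-affinity kinase (-1.01), Med25 of the Mediator complex (-0.69), the histone demethylase Phf2 (-0.61), the nuclear pore protein gene Pom121 (-0.91), the aminopeptidase Rnpep (-0.58), the polarity scaffold Scrib (-0.52), and Lrfn3, a synaptic adhesion molecule (-1.57). R3hdm2 fell on both backgrounds and more on the mixed one (effects -0.27 and -0.82). Gm20186 is a noncoding RNA gene that shares 76.1% of its windows with Gm26809, and its level is uncertain (0.862 to 1.77 in KO mixed, 1.52 to 1.73 in treated, 1.91 to 22.5 in the others). Several calls sit near the threshold. Scrib, with an adjusted p of 0.0499, and Aldh4a1, the remaining gene of the 15, were each called under 4 of 24 alternatives. Med25 was called under 6, R3hdm2 under 7, Cic, Phf2 and Gm20186 under 8, Mark4 and Ap2a1 under 9, Lrfn3 and Pom121 under 12, Rnpep under 16 and Eif4g3 under 19.

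No gene of this group was called in cord, and the group is rich in G and C. The 15 genes had cord differences between -0.29 and 0.36, with a median of -0.01. The 14 protein-coding ones had a median GC content of 58.1%, against 50.9% for all 12749 protein-coding genes tested with a known content. With these genes in 10 bins of equal size by GC content, the median difference was 0.03 in bins 2 to 4 and -0.19 in the highest bin. The GC-rich minus GC-poor contrast of log2 signal was 0.10 to 0.18 in KO B6;129, -0.16 to -0.13 in WT B6;129, -0.19 to -0.01 in WT mixed, -0.09 to 0.06 in KO mixed and 0.08 to 0.12 in treated animals. Removing a curve of GC content from each library, an alternative chosen after seeing the data, left 29 called genes, 28 of them among the 40. Of the 15 genes of this group, 9 lost the call (Med25, Cic, Scrib, R3hdm2, Aldh4a1, Mark4, Lrfn3, Phf2 and Ap2a1) and 6 held it, while 3 of the other 25 called genes lost it (Nbl1, Mrpl9 and Frem2). The median difference of the 15 was -0.70 before and -0.69 after the curve was removed. Quantile normalization and a shift of each library to a common median each took the call from 7 of the 15 and from none of the other 25.

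**Figure D3:**
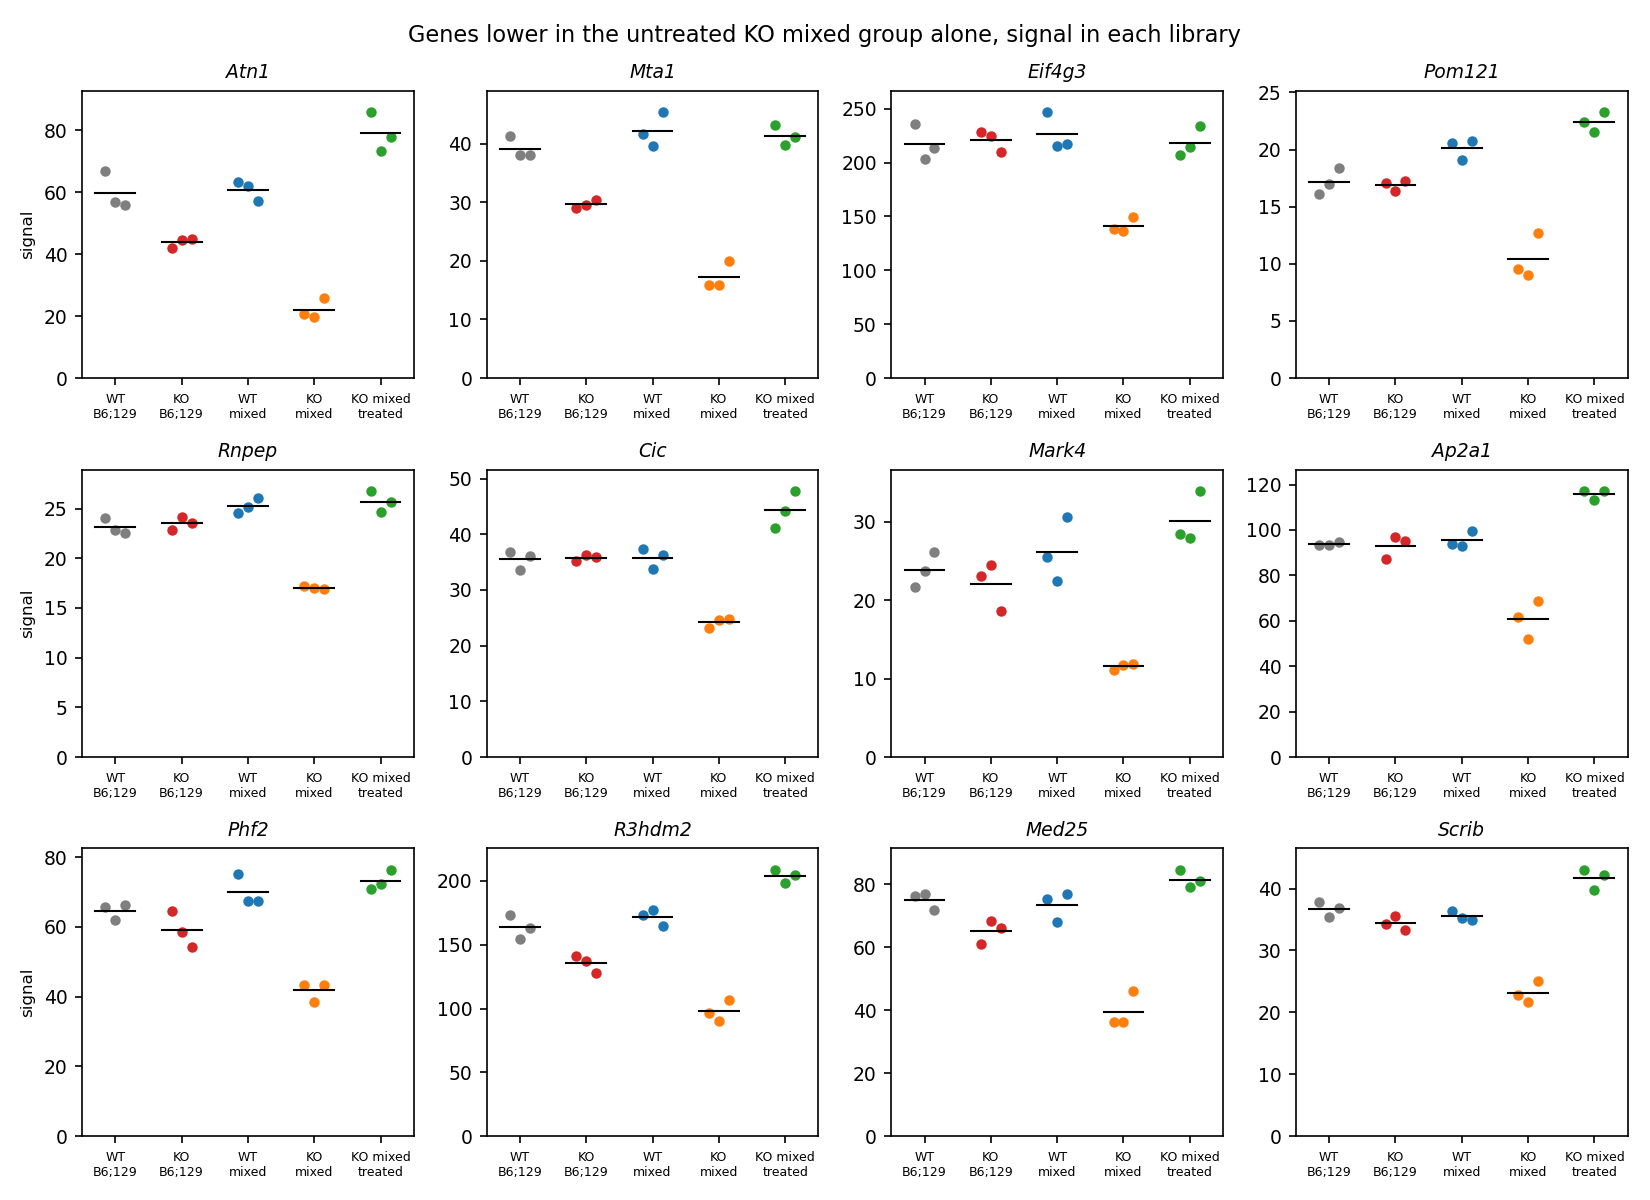
Signal (linear axes from 0) of 12 of the called genes in each quadriceps library, with 3 points a group and a bar at each group's mean. In each panel the 3 KO mixed points lie below the 9 points of the other untreated groups and below the 3 treated points.

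In 9 called genes all 3 KO mixed libraries lay above the other 9 untreated ones: Gstp-ps, Tpm3-rs7, Kif24, Sfi1, Hmga1b, Gm13010, Fat3, Cda and Tmem53. Here too the share of all tested genes with such a separation was not counted. Fat3, a giant atypical cadherin, was at 5.90, 3.63 and 5.36 in KO mixed and 0.556 to 2.29 elsewhere (difference 2.26 ± 0.36, limma adjusted p = 0.0209). Cda, the cytidine deaminase of pyrimidine salvage, was at 3.63, 4.15 and 4.40 against 0.292 to 1.63, and Tmem53 at 6.25, 7.29 and 7.22 against 1.79 to 4.06. Treated animals were below every KO mixed library, at 2.25 to 3.08 for Fat3, 0.746 to 1.20 for Cda and 3.13 to 3.99 for Tmem53. All 3 treated values of Cda and Tmem53, but 1 of the 3 of Fat3, lay within the range of the other 9 untreated libraries, and the Fat3 values were above the WT mixed ones (0.556 to 0.812). In Frem2, a matrix protein gene of basement membranes, the treated signals of 7.69, 6.52 and 4.57 lay above all 12 untreated values (difference 2.01 ± 0.38, adjusted p = 0.0471). Mrpl9, a mitochondrial ribosomal protein gene, fell in KO B6;129 (50.6 to 56.2 against 62.2 to 75.6) and rose in KO mixed (67.9 to 72.4 against 57.2 to 62.3), with a difference of 0.62. These calls moved with the processing: Fat3 was called under 17 and Cda under 11 of 23 alternatives, and Mrpl9 under 10, Tmem53 under 9 and Frem2 under 7 of 24.

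In 11 of the 40 genes the WT groups already differed. Osbpl10, an oxysterol-binding protein gene, was at 1.09 to 1.93 in WT B6;129 and 4.32 to 6.54 in the other 9 untreated libraries. It lies on chromosome 9, at 114978569-115232225. The mixed background showed no called knockout effect on it (-0.11) and B6;129 an upward one (1.59). Gpr75, a G protein-coupled receptor gene, was high in WT mixed alone (2.96, 2.23 and 2.67 against 0.104 to 0.676), and Gm27168, a noncoding RNA gene, in WT B6;129 alone (2.27, 4.12 and 2.07 against 0.0164 to 0.153). Osbpl10 was called under 15 of 24 alternatives, Gpr75 under 14 of 23 and Gm27168 under 10 of 23.

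Chromosome 4 held 9 of the 40 called genes, 9 of 862 tested there (1.04%, beside 0.283% of all genes). Of these, 5 lay in a segment chosen after the values were seen, from Wnt4 (start 137277489) to Klhdc7a (end 139968026), among 32 tested genes (15.6%). Of the 32, 16 had an unadjusted limma p under 0.05, beside 10.9% of all genes. Within the segment 21 of the 32 differences lay below 0, beside 7455 of all 14113, and the called genes went in both directions. Gm13010, annotated antisense, was at 5.63, 6.14 and 6.92 in KO mixed and at 0.181 to 1.03 in the other untreated groups (difference 3.05 ± 0.45, limma adjusted p = 0.0149, lost with edgeR and voom). Whether the counting used strand is not given in the sources used here. Nbl1, a secreted antagonist of bone morphogenetic proteins, rose on B6;129 (14.2, 15.1 and 16.4 in WT, 21.7, 22.02 and 23.5 in KO) and fell on the mixed background (21.2, 21.8 and 25.0 in WT, 17.2, 16.8 and 12.7 in KO), a difference of -1.08 ± 0.16 (adjusted p = 0.0149, lost with the GC curve removed and without WT B6;129 replicate 4). Aldh4a1, the mitochondrial enzyme that completes proline breakdown, was at 139 to 174 and 105 to 106 in WT and KO B6;129, and at 119 to 145 and 29.7 to 38.1 in WT and KO mixed (difference -1.42 ± 0.27, limma adjusted p = 0.0467, held with 1 of the 12 single libraries left out). Its treated values of 50.9, 56.2 and 98.8 lay above KO mixed and below every library of the other untreated groups. Eif4g3 and Cda, given above, are the other 2. Hspg2, the perlecan gene of the same segment, had a difference of -0.68 (adjusted p = 0.0866).

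The list with the largest shift was that of the immediate-early genes, transcription factors and signalling inhibitors that cells switch on within minutes of a stimulus. Of its 28 members, all tested, 25 had a difference below 0, beside 7455 of all 14113 genes. An unadjusted limma p under 0.05 was reached by 12, beside 10.9% of all genes. The 1 called member was Fosb, beside 0.184% of all genes called lower. The median difference was -0.97, against -0.02 for all genes. The median knockout effect was 1.07 on B6;129, where 13 members rose and none fell by limma at an adjusted p under 0.05 (beside 16.7% and 19% of all genes), and -0.07 on the mixed background, where 5 rose and 2 fell (beside 17.1% and 22.3%). The share that rose on the mixed background is thus near that of all genes. The median of WT mixed minus WT B6;129 was 1.12, and that of KO mixed minus KO B6;129 was 0.10. The summed signal of the list was 507 to 595 in WT B6;129, 762 to 797 in KO B6;129, 844 to 2330 in WT mixed and 899 to 1058 in KO mixed.

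The upstream sequences of Fosb and Nr4a3, a member with and without a call, are shown as promoters of this list: 250 bases before the start site from RefSeq (GRCm38.p6), with each TGACG, the core of the cAMP response element, on either strand (CGTCA) in capitals. TGACG was searched on both strands and is in 17.4% of 27025 RefSeq promoter windows, each of 250 bases. The full palindrome TGACGTCA, which contains it and was in neither of these 2 promoters, is in 1.54%. Fosb has 1 TGACG and Nr4a3 has 4, while other members of the list searched had 2 (Fos), 1 (Atf3 and Junb) or none (Jund and Socs3). A match is a stretch of letters and not a measured site.
Fosb, minus strand of chr7:19310046-19310295: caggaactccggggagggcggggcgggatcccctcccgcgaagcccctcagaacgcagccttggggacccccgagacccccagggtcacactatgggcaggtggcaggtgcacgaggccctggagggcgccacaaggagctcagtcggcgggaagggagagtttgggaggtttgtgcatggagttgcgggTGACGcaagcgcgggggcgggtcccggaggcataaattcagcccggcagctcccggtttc
Nr4a3, plus strand of chr4:48045055-48045304: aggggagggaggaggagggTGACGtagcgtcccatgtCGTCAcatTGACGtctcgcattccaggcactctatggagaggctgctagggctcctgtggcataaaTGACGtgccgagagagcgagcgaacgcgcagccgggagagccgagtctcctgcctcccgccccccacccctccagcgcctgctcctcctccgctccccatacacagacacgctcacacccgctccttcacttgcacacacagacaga

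Fosb, an AP-1 subunit, did not depend on 1 animal. Its signals were 0.756, 0.720 and 0.720 in WT B6;129, 2.68, 2.24 and 3.21 in KO B6;129, 10.6, 10.8 and 8.71 in WT mixed and 2.66, 1.59 and 1.95 in KO mixed. The groups do not overlap on either background, and the effect was 1.37 on B6;129 and -2.05 on the mixed background, a difference of -3.42 ± 0.49 (limma adjusted p = 0.0149), called under 23 of 24 alternatives. In cord its difference was 0.21 (adjusted p = 0.781). Jund, another AP-1 subunit, was next in the list, at 16.3 to 19.1 in WT B6;129, 31.9 to 38.7 in KO B6;129, 28.1 to 53.4 in WT mixed and 25.9 to 29.7 in KO mixed (difference -1.30, adjusted p = 0.0592). Jund has no TGACG in its 250 bases.

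Elsewhere in the list the replicate 4 animal of WT mixed was far above its group. Atf3, a stress-induced repressor, was at 20.4 and 13.4 in replicates 1 and 3 and at 372 in replicate 4, Fos at 22.3, 31.1 and 184, Nr4a3, a nuclear receptor, at 21.1, 14.3 and 165, and Socs3, an inhibitor of cytokine signalling, at 9.26, 5.92 and 35.2. The matching WT B6;129 values were 8.25 to 10.3 for Atf3, 7.92 to 21.9 for Fos, 1.41 to 4.11 for Nr4a3 and 1.70 to 4.14 for Socs3, so that the other 2 WT mixed animals were also above WT B6;129 in these 4 genes, in Fos by little. Without replicate 4 the list's median difference was -0.62 with 23 of 28 members below 0 and 2 called, and the count over all genes was 33, of which 22 were among the 40. How the animals were handled before dissection is not given in the sources used here, and its part was not tested.

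**Figure D4:**
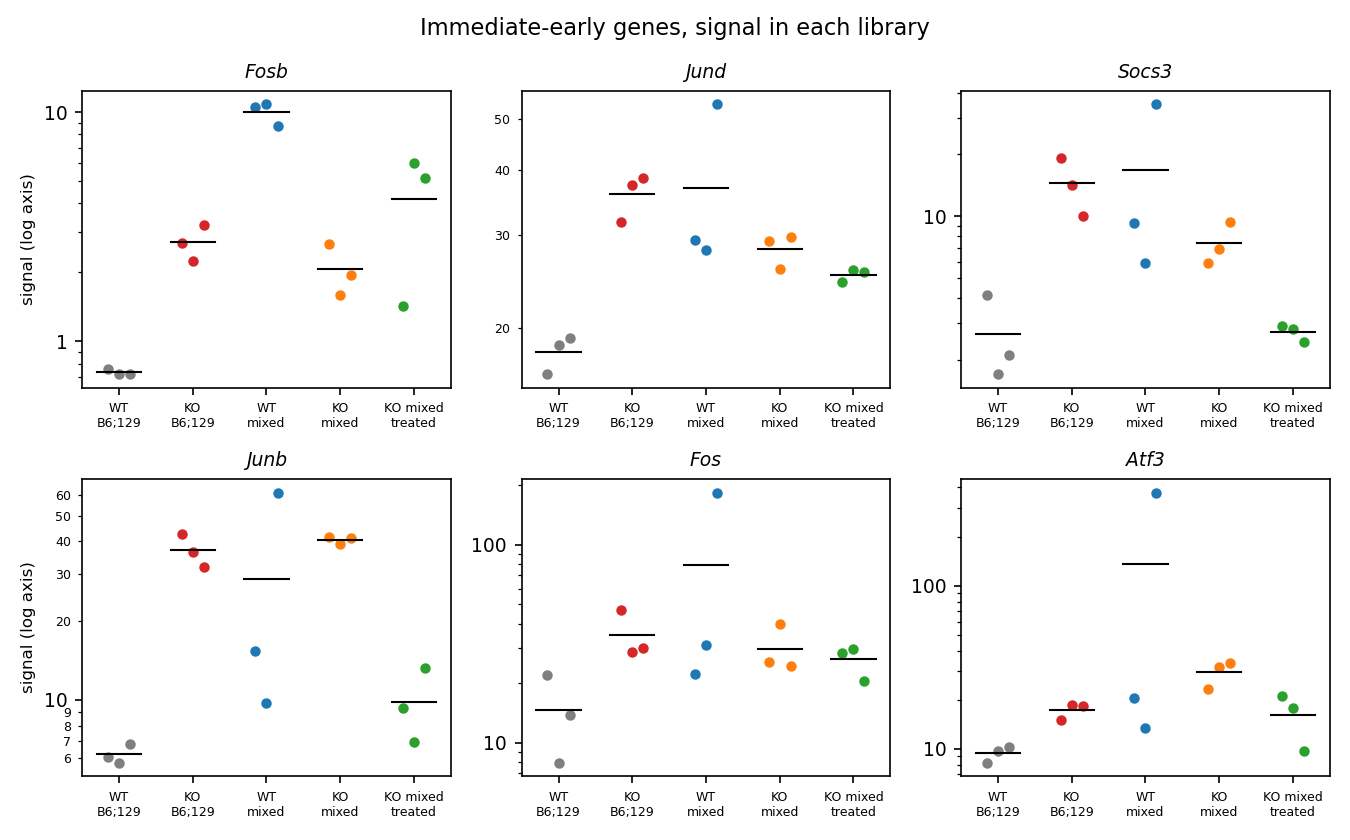
Signal (log axes) of 6 immediate-early genes in each quadriceps library, with 3 points a group and a bar at each group's mean. Fosb is tight within each untreated group and highest in WT mixed, while in Jund, Socs3, Junb, Fos and Atf3 the 3rd WT mixed point (replicate 4) lies above the other 2.

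Cdkn2a, the locus of the p16 and p19ARF cell cycle inhibitors and a marker of senescent cells, responded to the knockout on both backgrounds and more on B6;129. It was at 0.163 to 0.202 in WT B6;129 and 5.74, 6.25 and 10.1 in KO B6;129, and at 0.0325 to 0.231 in WT mixed and 1.00, 1.70 and 0.869 in KO mixed. The KO groups did not overlap, the effects were 3.49 and 1.44, and the difference was -2.05 ± 0.34 (limma adjusted p = 0.0246). These are low levels, and the call was lost with the stricter filter, edgeR, DESeq2 and voom. It was the 1 called gene of 22 tested in the list of cell cycle inhibitors and p53 targets, whose median difference was -0.16. Cdkn1a, the p21 gene, had effects of 2.37 and 0.82 (adjusted p of the difference = 0.370), and Eda2r, Gadd45a and Bax had effects of 2.39 and 2.10, 1.93 and 2.01, and 0.70 and 0.45.

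Over the genome, 19 genes had knockout effects called in opposite directions, against 1620 that rose and 2015 that fell on both backgrounds. Of the 19, 8 were also called for the difference: Gm15920, Fosb, Kif24, Frem2, 4930556M19Rik, Gm29084, Nbl1 and Mrpl9. Gm29084 shares 92.7% of its windows with Noct. The rest did not pass the direct test, with limma adjusted p values of 0.0612 to 0.113. Alad, of haem synthesis, was at 33.7 to 45.2 and 19.9 to 26.1 in WT and KO B6;129, and at 23.3, 49.6 and 25.4 in WT mixed and 43.6 to 56.1 in KO mixed, so that the WT mixed group overlapped KO mixed. Ostn, the gene of the muscle-secreted peptide musclin, had group means of 9.55 and 4.06 on B6;129 and 8.68 and 16.2 on the mixed background (difference 2.17, adjusted p = 0.0888).

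Lysosomal and vacuolar ATPase genes rose on both backgrounds more often than all genes did. Of the 31 lysosomal genes, 20 rose on B6;129 and 18 on the mixed background, beside 16.7% and 17.1% of all genes, with medians of 0.52 and 0.45. None was called for the difference by limma, edgeR or DESeq2. An unadjusted limma p under 0.05 was reached by 3, beside 10.9% of all genes, and in 27 the 95% interval of the difference lay within 2-fold. Hexa, a hexosaminidase subunit, had effects of 1.61 and 1.36, and Ctsl, a cathepsin, of 1.16 and 1.10. Gpnmb, induced in lysosome-loaded phagocytes, had 2.71 and 0.40, with a standard error of 0.93 and an adjusted p of 0.374. The vacuolar ATPase list (16 tested, 11 up on each, beside the same shares of all genes) had medians of 0.39 and 0.34. The autophagy list (24 tested) had a median of 0.07 on each. Of its members 5 rose and 3 fell on B6;129, beside 16.7% and 19% of all genes. On the mixed background 6 rose and 4 fell, beside 17.1% and 22.3%.

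Glycogen metabolism and the markers of fibre renewal also changed on both. In the glycogen list 12 of 22 genes fell on each background, beside 19% and 22.3% of all genes, and the medians were -0.54 and -0.43. Phkb, a phosphorylase kinase subunit, had effects of -1.03 and -1.23. Pygl, the liver phosphorylase isoform, had -1.03 and 1.04 with a standard error of 0.81, and its difference did not pass (adjusted p = 0.356). Of 20 regeneration genes, 16 and 13 rose, beside 16.7% and 17.1% of all genes, with medians of 2.01 and 1.79, and the interval was within 2-fold in 10. Embryonic myosin Myh3 had effects of 3.77 and 2.98, Myl4 of 3.62 and 3.61, and Ncam1 of 2.73 and 2.95. Igf2 had the smallest p of the list, at 11.9 to 13.8 and 39.9 to 85.9 in WT and KO B6;129 and 18.8 to 20.1 and 26.8 to 34.2 in WT and KO mixed (difference -1.39 ± 0.28, limma adjusted p = 0.0612). In the denervation and atrophy list (22 tested) the medians were 0.73 and 0.76.

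The 6 genes changed most surely on both backgrounds are given with their effects. They were Gaa, Ahnak2 (4.99 on B6;129 and 4.62 mixed), the metallothionein Mt3 (6.90 and 7.38), Osbpl3 (3.45 and 3.38), the annexin Anxa4 (2.47 and 2.40) and Fam129b (3.29 and 2.87). Ahnak2, a giant scaffold protein gene, was at 6.58 to 7.69 and 220 to 258 in WT and KO B6;129 and at 5.62 to 10.5 and 198 to 212 in WT and KO mixed. None of the 6 passed the test of the difference, and the 95% interval for Ahnak2 was -0.93 to 0.19 on the log2 scale.

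**Figure D5:**
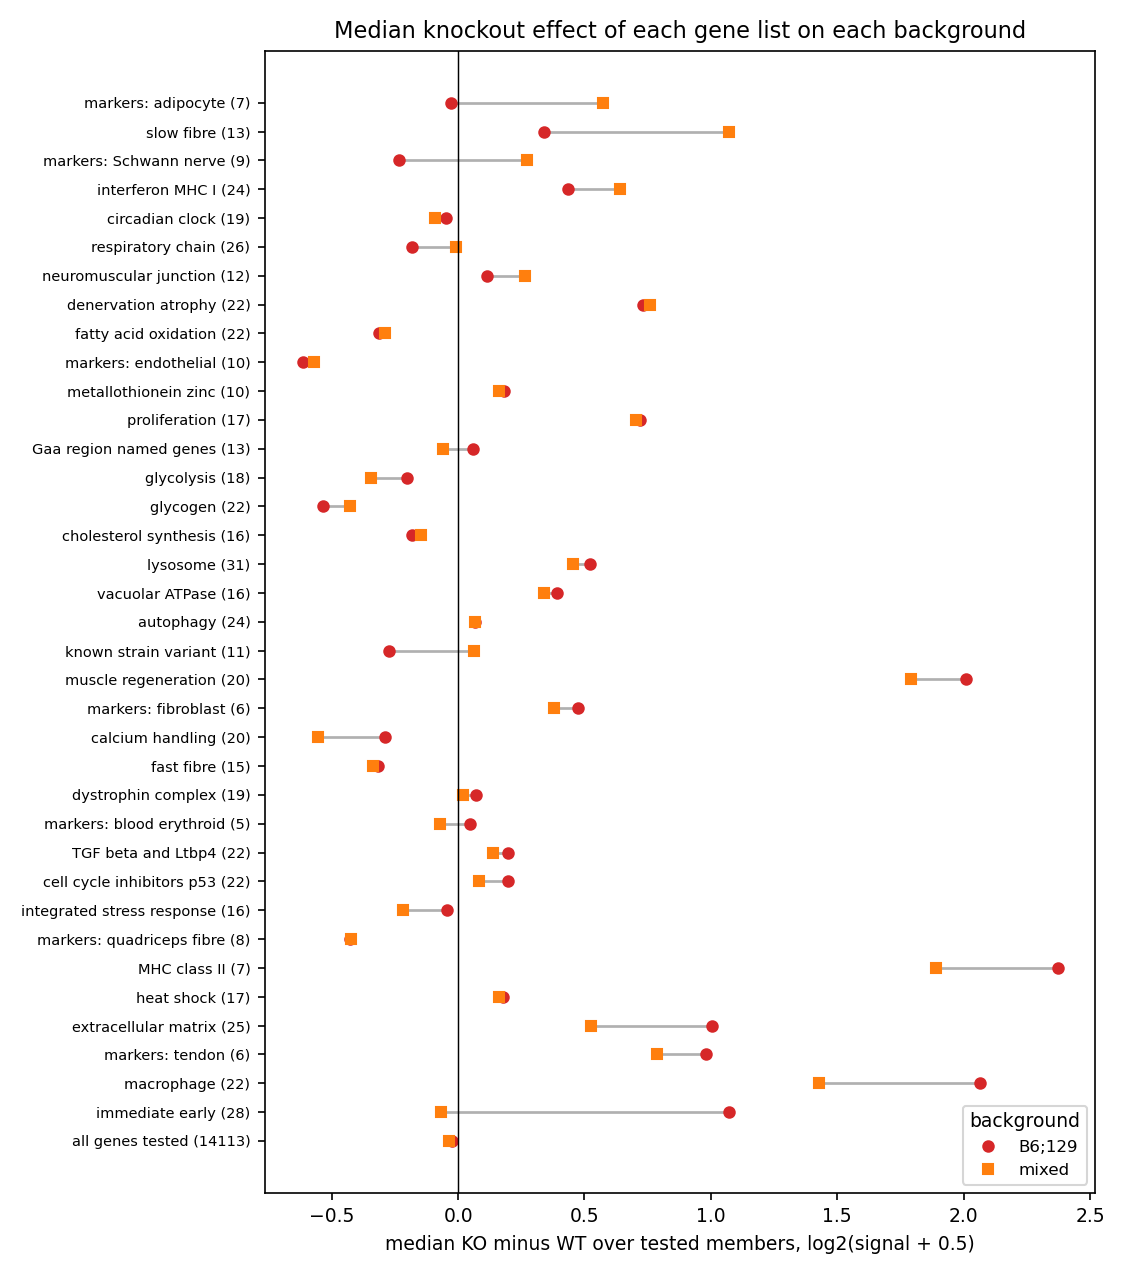
Median knockout effect (KO minus WT, log2(signal + 0.5)) over the tested members of each list with at least 5, on B6;129 (circles) and the mixed background (squares); the number tested is in brackets and the lowest line gives all 14113 genes. The circle and square lie close in the lysosome, glycogen and denervation lists and farthest apart in the immediate-early, macrophage and slow fibre lists.

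Some lists leaned to 1 side with no member called by limma, and here the intervals were wide. Of 22 macrophage genes, 21 rose on B6;129 and 20 on the mixed background, beside those shares of 16.7% and 17.1%, with medians of 2.06 and 1.43. Of the 22 differences, 1 lay above 0, beside 47.2% over all genes, and the interval was within 2-fold in 1. An unadjusted limma p under 0.05 was reached by 3, beside 10.9% of all genes. DESeq2 called 2, beside 203 of all genes, and edgeR none. Lgals3, the galectin of activated macrophages, was at 1.84 to 3.14 and 108, 124 and 165 in WT and KO B6;129, and at 3.87 to 9.82 and 91.5, 55.2 and 84.4 in WT and KO mixed (difference -1.75, limma adjusted p = 0.153). The summed macrophage signal was 99.4 to 135 in WT B6;129, 167 to 242 in WT mixed, 577 to 779 in KO B6;129 and 461 to 828 in KO mixed, so the WT groups did not overlap and the KO groups did. In bulk tissue, fewer cells of a type and less RNA per cell cannot be told apart. Without KO mixed replicate 8 the median difference was -0.34, and without replicate 6 it was -0.79. The matrix list had medians of 1.00 and 0.53 with 21 of 25 differences below 0, beside 7455 of all 14113. Its median difference of -0.27 was -0.05 without KO mixed replicate 8 and -0.10 without WT B6;129 replicate 4.

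Slow-fibre genes leaned the other way, with medians of 0.34 on B6;129 and 1.07 on the mixed background. Of 13 differences, 12 lay above 0, beside 47.2% over all genes, and 4 had an unadjusted limma p under 0.05, beside 10.9%. DESeq2 called 1, beside 203 of all genes, and edgeR none. Casq2, the slow and cardiac calsequestrin, was at 18.8 to 28.8 and 53.8 to 59.8 in WT and KO B6;129 and 15.2 to 20.4 and 76.5 to 113 in WT and KO mixed (difference 1.07 ± 0.24, limma adjusted p = 0.0800). Myoz2, a slow-fibre Z-disc protein gene, had effects of 0.35 and 1.07, and Myl2, the slow regulatory light chain, of 0.22 and 1.82 (adjusted p of the difference 0.340 and 0.407). The slow myosin Myh7 had a difference of 1.88 with a standard error of 2.10. The edgeR fit gave a median difference of 0.41 for the list. The fast-fibre list had medians of -0.32 and -0.34. Among markers of other cell types, all 7 adipocyte markers had differences above 0, beside 47.2% over all genes. Their median was 0.75 (0.26 without WT B6;129 replicate 5, 0.36 without WT mixed replicate 4). The Schwann cell list had a median difference of 0.57 (0.33 without KO mixed replicate 7, 0.34 without WT mixed replicate 4). The 10 endothelial markers, with knockout effects of -0.61 and -0.57, had a median difference of 0.02. The summed adipocyte signal overlapped in all 4 groups, at 405 to 923, 467 to 724, 416 to 536 and 506 to 803 in WT B6;129, KO B6;129, WT mixed and KO mixed. The part of cell composition in the called genes was not tested.

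In the TGF-beta list, which holds Ltbp4, no member of 22 tested was called by limma or edgeR. DESeq2 called 1, beside 203 of all genes, and 5 had an unadjusted limma p under 0.05, beside 10.9% of all genes. Tgfb1, the ligand whose latent form LTBP4 binds, was at 3.54 to 4.21 and 12.8, 19.7 and 20.01 in WT and KO B6;129 and at 4.97 to 6.64 and 9.43, 5.25 and 12.5 in WT and KO mixed, so that WT and KO overlapped on the mixed background alone (difference -1.45 ± 0.35, limma adjusted p = 0.117). Ltbp1, another latent TGF-beta binding protein gene, had effects of 1.13 and 1.88 (adjusted p of the difference = 0.245). In calcium handling, 16 of 20 differences lay below 0, beside 7455 of all 14113, with a median of -0.13. The release channel gene Ryr1 fell by 0.72 on B6;129 and by 1.10 on the mixed background on the log2 scale (difference -0.38, adjusted p = 0.322).

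Genes lay close to the threshold on both sides. The last called gene, Scrib, had an adjusted p of 0.0499 and the next gene one of 0.0536. Just outside were Hsf1, the heat shock transcription factor, with 51.3 to 56.1 in WT B6;129, 45.7 to 46.8 in KO B6;129, 50.4 to 53.9 in WT mixed and 31.04 to 34.3 in KO mixed (difference -0.49), and Dvl1, a Wnt signal transducer (difference -0.41), both at an adjusted p of 0.0549 and both low in KO mixed alone; they were chosen after their values were seen.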

How the data were processed

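Signal values of 17420 genes in 30 libraries were deposited by the authors in 1 table. The submitters' processing notes name cutadapt, RSEM, limma, edgeR and GRCm38, with no versions, and the strand setting of the counting is not given in the sources used here. The values showed signal to be reads plus 0.5, scaled per library: 100% of values fell within 0.001 of a whole read, and the recovered reads served the count tests below.

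Log2(signal + 0.5) of the 15 quadriceps libraries (5 groups of 3) was fitted with limma 3.58.1 (intensity trend) in R 4.3.3, for genes with a signal of 1 or more in 3 or more libraries. The difference, (KO minus WT mixed) minus (KO minus WT B6;129), was tested with Benjamini-Hochberg adjustment over 14113 genes at 0.05, and the 15 cord libraries were fitted alike. Fold changes on this scale understate changes of low genes. Intervals are at 95%. Pseudocount, filter, scaling, samples, prior, edgeR 4.0.16, DESeq2 1.42.0 and limma voom were alternatives, as was leaving out each replicate. The GC curve (limma loessFit) was added after seeing the data. The fit was checked on simulated data. Group labels and replicate numbers come from the sample labels. Windows and coordinates are from GENCODE vM21.

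Named were Gaa and Ltbp4, the 30 called genes with the smallest adjusted p, 5 called in opposite directions, the called members and 2 members with the smallest p in each of 38 lists, and the 6 genes whose larger adjusted p over both knockout effects was smallest. The other 10 called genes, the parents of copies, and further genes given as examples (Hexa, Ctsl, Phkb, Myl4, Ncam1, Myh3, Eda2r, Gadd45a, Bax, Ostn, Hspg2, Card14, Junb, Fos, Atf3, Nr4a3, Hsf1, Dvl1 and others outside the rule) were chosen after their values were seen. A few genes, 1 of the 40 called among them, are not reported here by name. The comparison and lists were chosen with earlier results of these data known.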

Additional observations from a re-analysis of the deposited data

Results flagged for a closer look

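The genes named below belong to the 40 picked out because their knockout effect differed between the 2 backgrounds in a direct test (limma, adjusted p under 0.05). Groups of 3 animals were not tested for outlying values within a group, and the effect of leaving out each animal is given with the results above.

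The effect was higher on the mixed background, on the log2(signal + 0.5) scale, in Gstp-ps (6.75), Tpm3-rs7 (3.83), Kif24 (3.09), Gm13010 (3.05), Sfi1 (2.61), Gm27168 (2.36), Fat3 (2.26), Cda (2.18), Frem2 (2.01), 4930556M19Rik (1.70), Gm29084 (1.42), Slc26a11 (1.40), Tmem53 (1.24) and Mrpl9 (0.62). In Gm27168 this reflects a fall on B6;129, from 2.07 to 4.12 in WT to 0.153 or less in KO, and in 4930556M19Rik, a noncoding transcript, a fall on B6;129 (effect -0.92) beside a rise on the mixed background (0.78).

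The effect was lower on the mixed background in Gm15920 (-9.06), Gm10073 (-5.58), Hmga1b (-4.57), Fosb (-3.42), Rab11b-ps2 (-3.36), Gm20186 (-3.33), Cdkn2a (-2.05), Gpr75 (-1.91), Gm11942 (-1.72), Osbpl10 (-1.70), Lrfn3 (-1.57), Aldh4a1 (-1.42), Nbl1 (-1.08), Atn1 (-1.02), Mark4 (-1.01), Pom121 (-0.91), Mta1 (-0.88), Eif4g3 (-0.70), Med25 (-0.69), Ap2a1 (-0.64), Phf2 (-0.61), Rnpep (-0.58), Cic (-0.57), R3hdm2 (-0.54) and Scrib (-0.52).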

How the results depend on the processing

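The count of 40 genes was 10 with edgeR, 203 with DESeq2 and 6 with limma voom on recovered reads, and ranged from 11 (without WT B6;129 replicate 4) to 116 (without KO mixed replicate 8) when 1 replicate was left out. The count of genes differing between the WT groups (363) was 786 with DESeq2 and 187 to 596 with 1 replicate left out, and that between the KO groups (668) was 286 to 835. In cord (83) it was 146 on the untreated libraries alone, 278 with DESeq2, and 43 to 95 with 1 replicate left out. Counts of either knockout effect stayed within 1.5 times. The cause of these shifts was not tested. Under the remaining alternatives the difference was called in 29 to 39 genes. A fit of the 12 untreated libraries alone gave 39, of which 26 were among the 40. In that fit 8 of the 15 genes lower in KO mixed than in all other untreated libraries lost the call, as did 6 of the other 25. For single genes, 2862 values kept their side of the threshold, 372 lost the call and 43 gained one. None that was called before or after the change reversed its sign, and reversals of values called in neither were not counted. Precision is limited by 3 animals a group, and a gene near 1 read cannot show a difference. No paired analysis was possible because the groups compared share fewer than 2 replicate numbers.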
